A study of Homo sapiens with 6 samples.

Results

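The urokinase system and invasion proteases were examined in HCT116 cells, an established colorectal cancer line, after silencing of the long non-coding RNA AC010789.1. The set held 9 genes, PLAU, PLAUR, ST14, MMP14, MMP15, TIMP1, TIMP2, ADAM10 and ADAM17, of 18750 genes with counts, and was chosen by gene symbol. Of the 98886 transcripts in the table, 50 belonged to these 9 genes. The study transfected the cells, with the lipid reagent Lipofectamine, with a negative control siRNA (siRNA-NC, the control, 3 libraries) or with one that targets AC010789.1 (si-AC010789.1, the knockdown, 3 libraries), and sequenced paired-end libraries of total RNA. A single siRNA sequence was used for the knockdown, and no untransfected library was analysed here. The study describes the replicates as biological repeats made with cells of differing generations, while the labels do not say how they were grown. Each p-value of a fit sets a group difference against the spread between these libraries. The study checked the knockdown in its sequenced samples, and no level of AC010789.1 was analysed here.

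The study measured Transwell invasion of these cells, and the proteases below are among those known to act when cells cross a matrix. Urokinase, bound to its receptor at the cell surface, cuts plasminogen to plasmin, a broad protease that degrades fibrin and matrix. Membrane-type matrix metalloproteinases cut collagen and other matrix proteins at the cell surface and are held in check by inhibitors such as TIMP2. ADAM10 and ADAM17 release growth factors, cytokines and receptors from the membrane, a step named shedding, and matriptase, the product of ST14, activates other proteases and growth factors on epithelial cells.

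Depth ran from 11277222 to 13443866 counts per library, and 3 counts, the upper limit that a count of 0 allows, equalled 0.223 to 0.266 CPM (counts scaled to the total of the library); such limits cover counting error only. Of 10 colorectal epithelial marker genes, KRT19, CDX1, CDX2, VIL1 and GPA33 had no row in the table. The lowest summed count of a transcript in the table was 3, so a missing row is not a measured 0. CDH17 and LGALS4 had 0 to 3 counts per library and EPCAM had 35 to 68, while KRT8 and KRT18 reached 444 to 850 CPM and 351 to 535 CPM. Summed, with nothing added for a gene without a row, the 10 genes had 985 to 1229 CPM in the control and 801 to 1041 CPM in the knockdown. The label HCT116 was therefore borne out by few of these markers, and it is used here as the submitters gave it. The summed level of 6 fibroblast markers was 59.7 to 69.3 CPM in the control and 63.8 to 68.6 CPM in the knockdown. Over the libraries COL1A1 had 37.8 to 48.0 CPM and PDGFRB had 16.4 to 19.0 CPM. COL3A1 had 1.76 to 3.99 CPM and DCN had 1.51 to 2.43 CPM, while COL1A2 and LUM had no row. The 6 leukocyte markers summed to 6.15 to 8.30 and 3.32 to 5.67 CPM. CD68 had 2.19 to 8.30 CPM and CD14 had 0 to 1.13 CPM, with no row for PTPRC, CD3E, LYZ and MS4A1. The 4 endothelial markers summed to 1.73 to 2.48 and 0.873 to 2.51 CPM, with no row for PECAM1 and KDR. The part of these genes in the results below was not tested.

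The 4 metalloproteinases share a zinc-binding motif, in which 3 histidines hold the catalytic zinc. Its codons are shown here in the transcript with the most counts of each gene, with the histidine codons in capitals, because the motif is what joins the MMP and ADAM members. The sequences come from GENCODE v29 (build GRCh38) and lie at chr14:22843283-22843315 (plus strand, exon 5 of 10) in MMP14-201, chr16:58040563-58040595 (plus strand, exon 5 of 10) in MMP15-201, chr2:9510078-9510110 (minus strand, exon 11 of 19) in ADAM17-201, and, across a splice junction, chr15:58633196-58633225 and chr15:58627881-58627883 (minus strand, exons 9 and 10 of 16) in ADAM10-201.
MMP14-201: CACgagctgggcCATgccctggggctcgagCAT
MMP15-201: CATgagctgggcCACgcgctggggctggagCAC
ADAM10-201: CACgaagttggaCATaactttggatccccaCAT
ADAM17-201: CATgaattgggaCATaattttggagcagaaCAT
Over these 33 bases MMP14 and MMP15 were identical at 28 and ADAM10 and ADAM17 at 25, against 14 to 19 between an MMP and an ADAM.

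PLAU and ST14 are serine proteases, and the codons around their active-site serine, in capitals, are shown because they place both in that enzyme class. The run in PLAU-202 spans chr10:73915394-73915399 and chr10:73916389-73916412 (plus strand, exons 9 and 10 of 10), and that in ST14-201 spans chr11:130209573-130209578 and chr11:130209662-130209685 (plus strand, exons 18 and 19 of 19).
PLAU-202: tgccagggagacTCAgggggacccctcgtc
ST14-201: tgccagggtgatTCCgggggacccctgtcc

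On a scale that allows genes to be compared, TPM (counts divided by transcript length and scaled to the same sum in each library), the inhibitors stood highest and the proteases lower. The mean level over the 6 libraries was 301 TPM for TIMP2 and 236 TPM for TIMP1, whose ranges overlapped. PLAUR followed at 73.2 TPM, ADAM17 at 49.4 TPM and ADAM10 at 36.1 TPM, with no overlap between these neighbours. MMP15 at 25.6 TPM overlapped ADAM10 and did not overlap ST14 at 20.1 TPM. PLAU was far below its receptor, at 3.05 TPM, and MMP14 was at the limit of detection, at 0.0418 TPM. These levels are over all transcripts of a gene, and how the authors divided reads between transcripts is not given in the sources used here. TIMP2-201 (220 codons) held 26.7% of TIMP2 counts in the control and 24.4% in the knockdown. TIMP1-201 (207 codons) held 26.3% and 39.3% of TIMP1 counts. Short transcripts weigh more per count on this scale. In siRNA-NC replicate 1, ADAM10 had 36 counts in ADAM10-215 (587 bases) and 1900 in ADAM10-201 (11431 bases). The order of single transcripts was not tested.

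Of the 8 tested genes, 0 had an adjusted p under 0.05 (edgeR's quasi-likelihood test, Benjamini-Hochberg over 13750 genes), while 135 of all genes did (0.982%). MMP14 was too low to be tested. At an unadjusted p under 0.05 stood 1 of the 8, MMP15, against 17.2% of all genes. With DESeq2, MMP15 was again the 1 gene called, where 5.06% of the 10278 genes with an adjusted p were called, and PLAU received none. No member met the criteria that the study applied to its own test, an unadjusted p under 0.05 and an absolute log2 fold change above 1. Of the 8 log2 fold changes, 4 were above and 4 below 0, with a median of −0.0099 beside −0.00066 over all tested genes. The groups did not overlap in 1 gene, MMP15, which was lower in the knockdown. Of all tested genes 25.1% had groups that did not overlap, 12.9% with the knockdown lower.

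**Figure D1:**
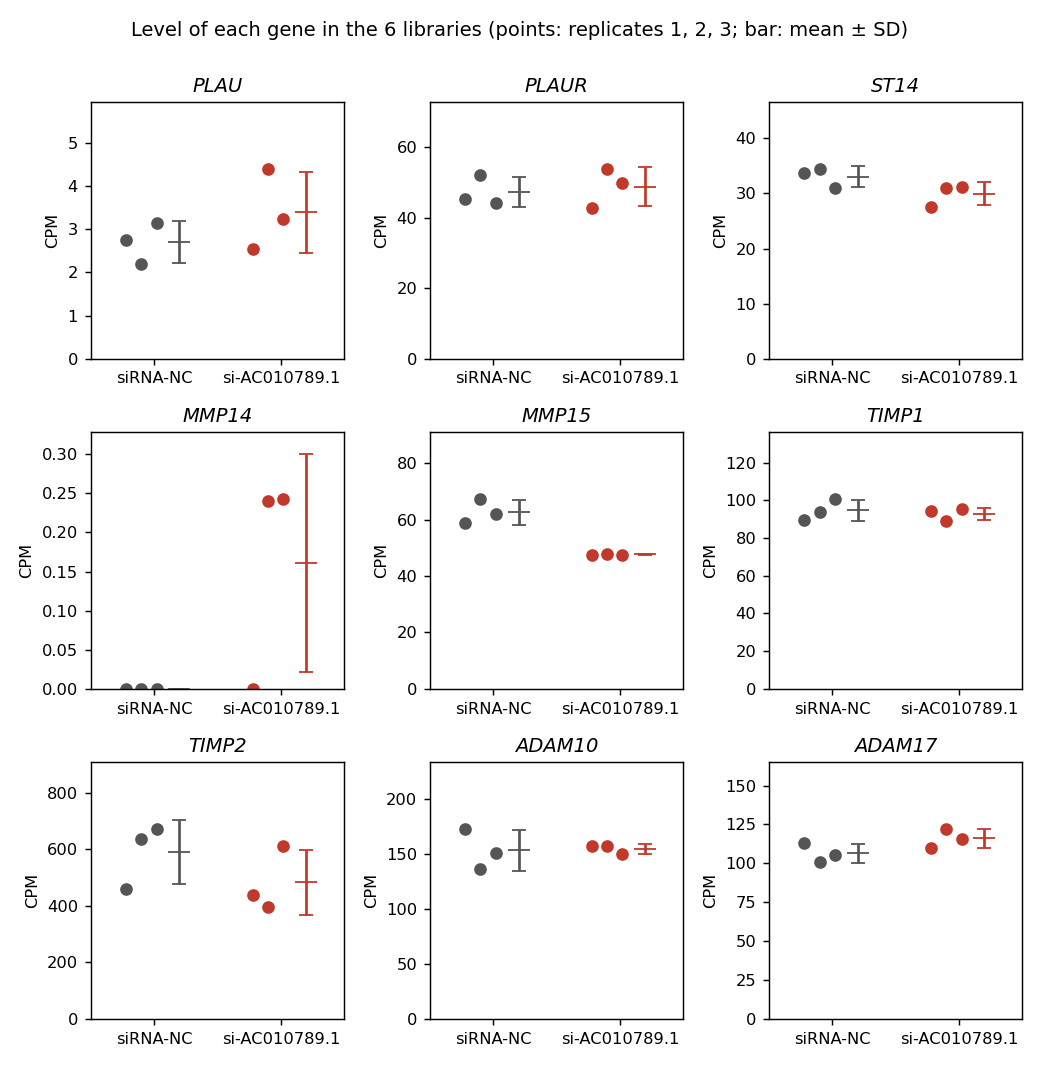
Level of the 9 genes in CPM (linear axes from 0, a scale of its own in each panel) in the 3 siRNA-NC and 3 si-AC010789.1 libraries, as points in the order of replicates 1, 2 and 3, with the mean and SD beside them. The groups are apart only in MMP15, where the si-AC010789.1 libraries sit at 47.5 to 47.8 CPM and the siRNA-NC libraries at 58.7 to 67.3 CPM.

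MMP15 (ENSG00000102996.4, chromosome 16, 58025566 to 58046901, plus strand), a membrane-type matrix metalloproteinase, was the member with the clearest separation. It had 58.7, 67.3 and 61.9 CPM in control (siRNA-NC) replicates 1, 2 and 3 and 47.5, 47.8 and 47.6 CPM in knockdown (si-AC010789.1) replicates 1, 2 and 3. Every knockdown library lay below every control library. The 3 knockdown values, from 544, 598 and 588 counts, were nearly equal. Counting error alone would usually spread such counts more widely, so this closeness is not a measure of precision. The means were 62.6 ± 4.38 and 47.6 ± 0.133 CPM (SD, n = 3 each), a log2 fold change of −0.40 (standard error, SE, 0.071). The adjusted p was 0.0675 with edgeR, which missed the threshold, and 0.00481 with DESeq2, which passed it. With each library left out in turn the edgeR adjusted p ran from 0.116 to 0.194 and the log2 fold change from −0.44 to −0.34. In bulk RNA, fewer cells with a transcript and less of it per cell cannot be told apart.

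The MMP15 signal came from 1 transcript. MMP15-201, which encodes 669 codons and holds the motif shown above, took 99.7% to 99.9% of the gene's counts in every library. It had 661, 892 and 824 counts in the control and 543, 596 and 586 counts in the knockdown. On its own it gave −0.41 (SE 0.11) on the log2 scale and an adjusted p of 0.674 over 44319 transcripts (edgeR), and of 0.0894 with DESeq2. The second transcript, MMP15-202, had 1 or 2 counts per library.

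MMP14 (ENSG00000157227.12, chromosome 14, 22836557 to 22849027, plus strand), the membrane-type enzyme best known for activating the secreted gelatinase MMP2, was close to absent. There were 0 counts in each control library and 0, 3 and 3 counts in the knockdown, all in MMP14-201, the 1 of its 6 annotated transcripts with a row. Since both groups were at or under the floor of 3 counts per library, no fold is given (exact two-sided permutation test of CPM, p = 0.4, where 3 against 3 cannot go below 0.1). The substrate MMP2 was itself below the filter, at 0 to 0.450 CPM.

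TIMP2 (ENSG00000035862.12, chromosome 17, 78852977 to 78925387, minus strand) encodes the inhibitor that blocks membrane-type metalloproteinases and also bridges MMP14 to the MMP2 precursor. It had 460, 636 and 672 CPM in the control and 440, 397 and 611 CPM in the knockdown. The groups overlapped, and replicates of the same group differed by 1.46-fold and 1.54-fold between the highest and the lowest. Means were 589 ± 114 and 483 ± 114 CPM (SD, n = 3 each), with a log2 fold change of −0.29 (SE 0.20, edgeR adjusted p = 0.518). TIMP2 shares exonic bases with CEP295NL on the same strand, which had 203 counts over the 6 libraries.

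The 2 main transcripts of TIMP2 differed in spread. TIMP2-201, the form with 220 codons, had 527, 3416 and 2084 counts in the control and 460, 664 and 3151 counts in the knockdown. Its lowest and highest libraries stood 5.62-fold apart in CPM within the control and 6.35-fold within the knockdown, and the 3 low libraries came from both groups. TIMP2-204, with 143 codons, varied less, with 4587, 4921 and 6790 counts in the control and 4510, 4187 and 4331 counts in the knockdown. The fits gave −0.42 (SE 0.93, edgeR adjusted p = 0.994) for TIMP2-201 and −0.27 (SE 0.14, adjusted p = 0.913) for TIMP2-204. The transcripts have 3219 bases in common, and only 433 bases of TIMP2-201 and 170 of TIMP2-204 tell them apart. The run below joins the end of the first exon, in capitals, to the second exon, in lower case, and is found in TIMP2-201 and in no other annotated TIMP2 transcript (chr17:78924959-78924988 and chr17:78873890-78873919, minus strand).
TIMP2-201: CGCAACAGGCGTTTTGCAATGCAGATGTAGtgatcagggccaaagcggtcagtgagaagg

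TIMP1 (ENSG00000102265.11, chromosome X, 47582313 to 47586789, plus strand), the secreted inhibitor of most matrix metalloproteinases, varied little between libraries as a gene and more as single transcripts. The gene had 89.7, 93.7 and 101 CPM in the control and 94.1, 88.8 and 95.1 CPM in the knockdown. The groups overlapped, with means of 94.7 ± 5.61 and 92.7 ± 3.37 CPM (SD, n = 3 each) and a log2 fold change of −0.031 (SE 0.064, edgeR adjusted p = 0.845). TIMP1-201, the full-length form with 207 codons, had 244, 373 and 329 counts in the control and 599, 400 and 322 counts in the knockdown. TIMP1-202, with 143 codons, had 489, 724 and 602 counts against 342, 465 and 521. In CPM, TIMP1-202 was 44.0, 56.5 and 46.5 in the control and 30.5, 37.7 and 43.0 in the knockdown, so that the groups lay apart, as they did in this direction in 7.1% of all tested transcripts.

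The test placed neither form past the threshold. The log2 fold change was 0.56 (SE 0.31, edgeR adjusted p = 0.923) for TIMP1-201 and −0.40 (SE 0.19, adjusted p = 0.905) for TIMP1-202. All 626 bases of TIMP1-202 are contained in TIMP1-201, so that only a splice junction tells the shorter form apart. TIMP1-205, with 136 codons, had 264, 130 and 359 counts in the control and 123, 215 and 314 counts in the knockdown, with overlapping groups (log2 fold change −0.18, SE 0.49, adjusted p = 0.994). It parts from TIMP1-201 at the end of exon 4, where it reads on into the intron (chrX:47585302-47585361) while TIMP1-201 is spliced (chrX:47585302-47585331 and chrX:47585543-47585572). The bases after exon 4 of TIMP1-201 are in capitals in both, and the spliced run is also in TIMP1-202.
TIMP1-201: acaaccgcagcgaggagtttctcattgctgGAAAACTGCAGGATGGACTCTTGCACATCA
TIMP1-205: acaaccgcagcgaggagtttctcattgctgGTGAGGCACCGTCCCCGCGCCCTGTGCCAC

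PLAU (ENSG00000122861.15, chromosome 10, 73909177 to 73917497, plus strand) encodes urokinase itself and was measured from few reads. Its counts were 31, 29 and 42 in the control and 29, 55 and 40 in the knockdown, or 2.75, 2.19 and 3.15 CPM and 2.53, 4.39 and 3.24 CPM. The groups overlapped, and si-AC010789.1 replicate 2 was the highest library. Means of 2.70 ± 0.484 and 3.39 ± 0.940 CPM (SD, n = 3 each) gave a log2 fold change of 0.33 (SE 0.27, edgeR adjusted p = 0.579). Without si-AC010789.1 replicate 2 the log2 fold change was 0.10.

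Most PLAU counts were assigned to one or the other of a pair of transcripts that share 2292 bases, and a further transcript, PLAU-203, had 0 to 6 counts per library. PLAU-202 (414 codons) had 29, 0 and 37 counts in the control and 29, 53 and 34 counts in the knockdown, while PLAU-201 (431 codons) had 26 counts in siRNA-NC replicate 2 and 0 in the other 5 libraries. The 1 library without counts of PLAU-202 was thus the 1 library with counts of PLAU-201. Both transcripts hold the active-site run shown above. PLAU-202 gave a log2 fold change of 0.82 (SE 1.27, edgeR adjusted p = 0.994), and 0.24 without siRNA-NC replicate 2.

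PLAUR (ENSG00000011422.11, chromosome 19, 43646095 to 43670547, minus strand) encodes the urokinase receptor, which is anchored to the outer membrane by a glycolipid. It had 45.4, 52.0 and 44.2 CPM in the control and 42.8, 53.9 and 49.9 CPM in the knockdown. The si-AC010789.1 libraries held both the lowest and the highest value. The means were 47.2 ± 4.23 and 48.8 ± 5.60 CPM (SD, n = 3 each), and the log2 fold change was 0.049 (SE 0.11, edgeR adjusted p = 0.861).

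Within PLAUR the main coding transcripts changed rank between libraries of the same group. PLAUR-203, the full-length receptor of 335 codons with the signal for the glycolipid anchor at its end, had 142, 271 and 336 counts in the control and 60, 393 and 399 counts in the knockdown. PLAUR-202, of 281 codons, has another last exon and had 300, 316 and 131 counts in the control and 349, 141 and 124 counts in the knockdown. PLAUR-202 made up 20.1% to 71.2% and PLAUR-203 12.2% to 64.8% of the gene's counts in a library. PLAUR-203 spanned 6.16-fold in CPM within the knockdown, where the whole gene spanned 1.26-fold. Neither differed between the groups past the threshold, with a log2 fold change of −0.23 (SE 0.60, edgeR adjusted p = 0.994) for PLAUR-202 and 0.23 (SE 0.70, adjusted p = 0.995) for PLAUR-203. They share 800 bases, up to the end of exon 6 (chr19:43652225-43652254, minus strand), and then diverge, into chr19:43646519-43646548 in PLAUR-202 and chr19:43649114-43649143 in PLAUR-203. The bases of the last exon are in capitals.
PLAUR-202: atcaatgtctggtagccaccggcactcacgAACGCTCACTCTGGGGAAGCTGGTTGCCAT
PLAUR-203: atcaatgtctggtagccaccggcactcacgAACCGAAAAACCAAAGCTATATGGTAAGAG

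**Figure D2:**
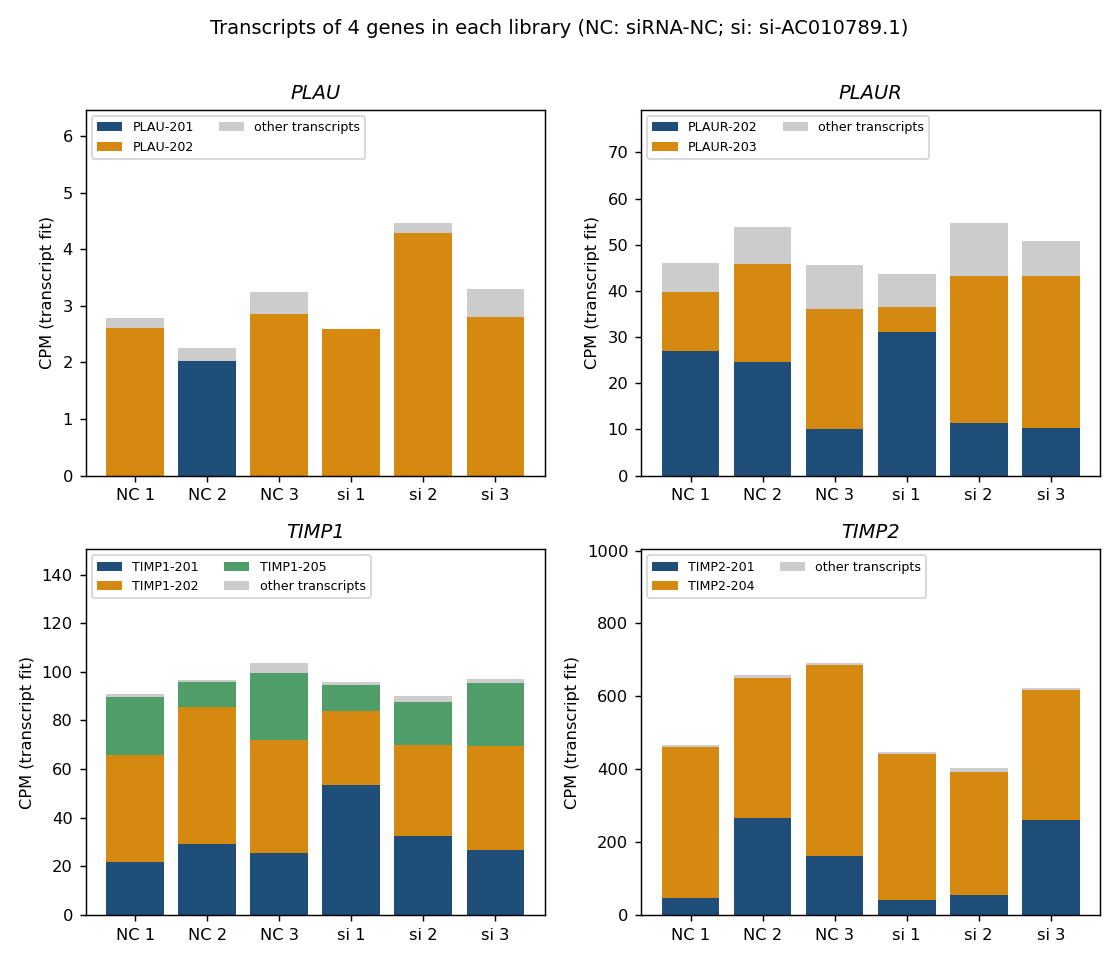
CPM of the main transcripts of PLAU, PLAUR, TIMP1 and TIMP2, stacked, in each of the 6 libraries, with all other transcripts of the gene in grey and linear axes from 0. The bars of PLAUR and TIMP1 are of like height while their parts change, and in TIMP2 both parts change, TIMP2-201 from 41.0 to 266 CPM and TIMP2-204 from 339 to 525 CPM.

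ADAM10 (ENSG00000137845.14, chromosome 15, 58588807 to 58749978, minus strand), the constitutive sheddase of Notch and many adhesion proteins, had 173, 136 and 151 CPM in the control and 157, 157 and 149 CPM in the knockdown. The control libraries spanned the range of the knockdown libraries. Means of 153 ± 18.5 and 154 ± 4.26 CPM (SD, n = 3 each) gave a log2 fold change of 0.012 (SE 0.089, edgeR adjusted p = 0.963). Of its 17 annotated transcripts 12 had a row, and ADAM10-201 (748 codons) held 94.6% to 98.8% of the gene's counts, with a log2 fold change of −0.021 (SE 0.11, adjusted p = 0.997).

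ADAM17 (ENSG00000151694.13, chromosome 2, 9488486 to 9556732, minus strand), the sheddase of tumour necrosis factor and of ligands of the epidermal growth factor receptor, had 113, 101 and 106 CPM in the control and 110, 122 and 116 CPM in the knockdown. Only si-AC010789.1 replicate 1 fell within the range of the controls. The means were 106 ± 6.19 and 116 ± 6.05 CPM (SD, n = 3 each), and the log2 fold change was 0.12 (SE 0.066, edgeR adjusted p = 0.395). ADAM17-201 (824 codons) held 99.0% to 99.8% of its counts, with 1271, 1329 and 1393 counts in the control and 1254, 1524 and 1429 in the knockdown (log2 fold change 0.12, SE 0.087, adjusted p = 0.963). ADAM17 overlaps IAH1 on the other strand, which had 1760 counts, and whether strand was used in counting is not given in the sources used here.

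ST14 (ENSG00000149418.10, chromosome 11, 130159562 to 130210376, plus strand), which encodes matriptase, had 33.8, 34.5 and 31.0 CPM in the control and 27.6, 31.0 and 31.3 CPM in the knockdown. The groups overlapped, with si-AC010789.1 replicate 1 the lowest library. The means were 33.1 ± 1.84 and 29.95 ± 2.04 CPM (SD, n = 3 each), a log2 fold change of −0.14 (SE 0.087, edgeR adjusted p = 0.460). Its coding transcript ST14-201 (855 codons) had 360, 434 and 397 counts in the control and 290, 356 and 356 counts in the knockdown. Its groups did lie apart in CPM, as in 7.1% of all tested transcripts in this direction (log2 fold change −0.20, SE 0.14, adjusted p = 0.955). ST14-201 made up 95.2% ± 0.842 of the gene's counts in the control and 91.9% ± 0.269 in the knockdown (SD, n = 3 each). An exact two-sided permutation test of these shares gave p = 0.1, and 3 against 3 cannot go below 0.1. How often shares lay apart among all transcripts was not tested. The remaining counts were in transcripts annotated as retained introns, with at most 20 counts each in a library. The largest of these was not the same transcript in every knockdown library.

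**Figure D3:**
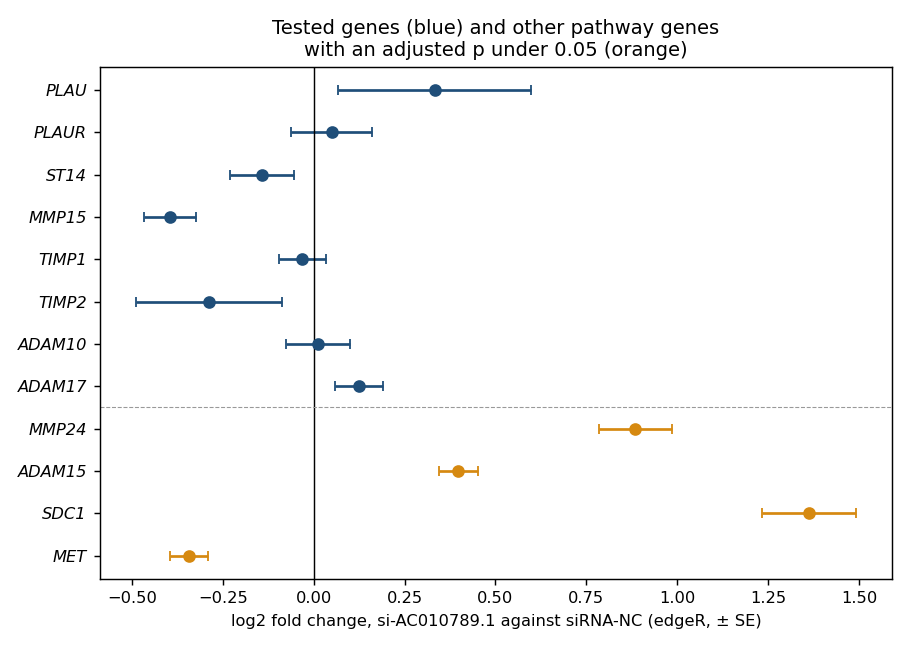
Log2 fold change of si-AC010789.1 against siRNA-NC with its standard error (edgeR), for the 8 tested genes in blue and, under the dashed line, the 4 other pathway genes with an adjusted p under 0.05 in orange. MMP15 lies farthest below 0 among the blue points, at −0.40, and PLAU farthest above, at 0.33 with a wide error.

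Among the 50 transcripts, 31 were annotated as protein-coding, 12 as retained introns, 4 as processed transcripts and 3 as targets of nonsense-mediated decay. Of the 19 that were tested, 0 had an adjusted p under 0.05 with edgeR, while 6 of all 44319 did (0.0135%). With DESeq2 the count was 0 as well, and 1.54% of 43744 transcripts with an adjusted p were called. MMP15-201 was the 1 transcript at an unadjusted p under 0.05, against 5.73% of all. The groups lay apart in 3 of the 19, MMP15-201, TIMP1-202 and ST14-201, all lower in the knockdown, beside 7.1% of all in that direction and 14% in either. Of the 19 log2 fold changes 7 were above and 12 below 0, with a median of −0.098 against 0.0027 over all tested transcripts.

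The genes whose pattern over the 6 libraries was most like that of PLAU and PLAUR were found by the root mean square difference of centred log2(CPM + 1) over 13443 genes. For PLAU these were CLN8 (0.0527), TMEM116 (0.0628) and KLHL30 (0.0630), against a median of 0.280 over all genes. For PLAUR they were UBE3D (0.0208), UBE2MP1 (0.0281) and RGS2 (0.0384), against a median of 0.190. RGS2, for example, had 69.05, 75.3 and 63.4 CPM in the control and 59.7, 76.8 and 70.9 CPM in the knockdown, the same order as PLAUR. Such likeness over 6 libraries is a description and shares depth and normalization among all genes.

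Partners of the 9 genes were taken from 7 lists by role, with 101 genes, of which 79 had counts and 62 were tested. The lists were written with earlier results of these data known, so the counts below cannot show whether these genes differ from all genes. In the knockdown, 3 of the 62 were higher and 1 lower at an adjusted p under 0.05 (edgeR), where 0.284% of all genes were higher and 0.698% lower. Their median log2 fold change was −0.021, and 29 of the 62 lay above 0. The higher genes were MMP24, ADAM15 and SDC1 and the lower gene was MET. Each of these calls was lost when any single library was left out, except that of SDC1 without si-AC010789.1 replicate 2 (adjusted p = 0.00775). With the replicate number as a block in the edgeR fit, 0 were called, at adjusted p of 0.126 to 0.171. The labels do not say whether the numbers pair libraries across the groups.

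On the list of plasminogen activation, 0 of 13 tested genes passed with edgeR and 3 had an unadjusted p under 0.05, where 17.2% of all genes did. The plasminogen-binding surface proteins ENO1 and ANXA2 were the most abundant, at 2153 and 718 TPM, with log2 fold changes of 0.060 and 0.049 (adjusted p = 0.622 and 0.637). VTN, the matrix protein vitronectin that binds the urokinase receptor, had the largest difference, −0.89 (SE 0.32, adjusted p = 0.235), at 0.729 to 1.81 CPM. Plasminogen itself, PLG, had no row in the table.

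Of 21 other matrix metalloproteinases 4 were tested, 1 of which was called. MMP24, a further membrane-type enzyme, rose from 8.77, 10.1 and 9.38 CPM in the control to 16.9, 18.4 and 16.9 CPM in the knockdown (log2 fold change 0.89, SE 0.10, edgeR adjusted p = 0.0223). It overlaps MMP24OS on the other strand, whose own log2 fold change was 0.063 (adjusted p = 0.781). MMP17, which is held at the surface by a lipid anchor, was the most abundant of the list at 49.9 TPM, and its log2 fold change was 0.12 (adjusted p = 0.616). MMP13, a secreted collagenase, had a log2 fold change of −1.18 (SE 0.45, adjusted p = 0.251) from at most 2.03 CPM. Of the 7 tested inhibitors and activators 0 passed with edgeR or DESeq2, and 0 had an unadjusted p under 0.05. The abundant BSG (729 TPM) and FURIN (153 TPM) had log2 fold changes of −0.17 (adjusted p = 0.338) and 0.037 (adjusted p = 0.840).

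Among the other ADAMs and regulators of ADAM10 and ADAM17, 1 of 13 tested genes was called. ADAM15 rose from 107, 105 and 108 CPM to 141, 147 and 133 CPM (log2 fold change 0.40, SE 0.053, edgeR adjusted p = 0.0361). When only transcripts annotated as protein-coding were summed, its log2 fold change was 1.28 with an adjusted p of 0.181. ADAM9, the most abundant at 160 TPM, stood at −0.17 (adjusted p = 0.594).

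Of the 9 tested ligands and surface substrates of shedding, 1 was higher and 1 lower, and 3 were called by DESeq2. SDC1, the shed heparan sulphate proteoglycan syndecan-1, rose from 51.1, 56.1 and 54.6 CPM to 152, 112 and 152 CPM (log2 fold change 1.36, SE 0.13, edgeR adjusted p = 0.0157). MET, the receptor of hepatocyte growth factor, whose precursor matriptase can activate, fell from 306, 341 and 313 CPM to 247, 255 and 254 CPM (log2 fold change −0.34, SE 0.052, edgeR adjusted p = 0.0470). CD44, at 364 TPM the most abundant, stood at −0.061 (adjusted p = 0.734). On the matriptase list 0 of 7 tested genes passed with edgeR or DESeq2, and 0 had an unadjusted p under 0.05. The substrate F2RL1, a protease-activated receptor, had the largest difference, 0.64 (SE 0.30, adjusted p = 0.348), while MST1R, a receptor tyrosine kinase, was at 0.0068 (adjusted p = 0.971). The ligand of MET, HGF, had no row in the table.

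**Figure D4:**
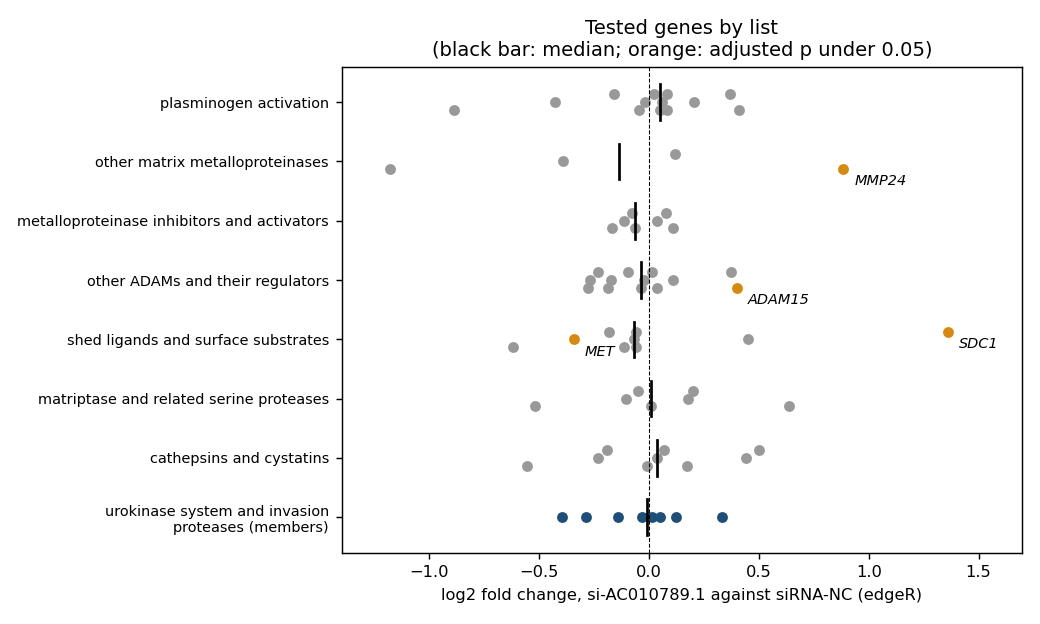
Log2 fold change (edgeR) of the 62 tested genes of 7 lists and of the 8 tested members, 1 point per gene, with a black bar at the median of each list. The medians lie near 0, and the 4 orange points with an adjusted p under 0.05 are MMP24, ADAM15, SDC1 and MET.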

How the data were processed

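Per the labels, total RNA of HCT116 cells was sequenced in 3 libraries per group. The authors deposited whole-number counts per Ensembl transcript, without normalization; the submitters' processing notes name CASAVA 1.8, TopHat2 2.0.6 and the builds mm10 and GRCh38, and the counting program and annotation are not given in the sources used here. Cuffdiff, the study's test, needs alignments and was not run.

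Transcripts were matched to GENCODE v29 (GRCh38) by identifier, 98782 of 98886, and summed per gene; the authors' annotation may differ. Matched transcripts held 99.897% to 99.931% of the counts. All genes, and all transcripts, were tested with edgeR 4.0.16 in R 4.3.3 (TMM, filterByExpr at a count of at least 10, in total 15, quasi-likelihood test, two-sided, Benjamini-Hochberg). CPM use TMM-scaled library sizes of the gene table, or of the transcript table for transcripts. TPM use GENCODE transcript lengths.

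The members and lists were chosen with earlier results of these data known. The text names all members, transcripts with at least 10% of their gene's counts in a group, and, of other genes, each with an adjusted p under 0.05, the 2 most abundant and the 1 with the largest difference per list, and the 3 most like PLAU and PLAUR with a mean of at least 1 CPM. Further transcripts and genes (MMP15-202, PLAU-203, MMP2, PLG, HGF) were added after their values were seen, and 1 result is not reported here. Scripts were tested on simulated data. Alternatives were DESeq2 1.42.0, RLE factors, no filter, the replicate number as a block, protein-coding transcripts only, and each library left out. Python 3.11.15, pandas 2.3.3, numpy 2.4.6, scipy 1.17.1 and matplotlib 3.10.9 were used.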

Additional observations from a re-analysis of the deposited data

How the results depend on the processing

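With edgeR 0 member genes and 0 member transcripts were called under every alternative run, and DESeq2 called 1 member gene, MMP15. The pathway lists gave 4 calls, 2 without the filter, 2 with protein-coding transcripts only, 0 with the replicate block (adjusted p of SDC1 0.126, MMP24 0.132, MET 0.166 and ADAM15 0.171) and 0 to 1 with a library left out. Among all genes, 135 were called, 520 with DESeq2, 127 with RLE factors, 69 without the filter, 56 with protein-coding transcripts only, 0 with the block and 12 (without si-AC010789.1 replicate 3) to 37 (without si-AC010789.1 replicate 1) with a library left out. With single libraries left out, transcripts called ran from 0 to 6. Deviations of libraries with the same number correlated at 0.111, 0.0109 and 0.0164, and those with different numbers at −0.0892 to 0.0791. The highest value was thus that of the replicates numbered 1. Whether the numbers pair libraries was not settled by these values. The cause of these shifts was not tested.

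Directions turned in log2 fold changes that no test called. With protein-coding transcripts only, ANXA2 was −0.0014, ENO1 −0.52, MST1R −0.14, CTSL −0.049 and CTSZ 0.021; without the filter, MST1R was −0.00052; with the replicate block, PLAUR-203 was −0.086. With a library left out, PLAUR ran from −0.024 to 0.14, TIMP1 from −0.067 to 0.014, ADAM10 from −0.069 to 0.11, FURIN from −0.0030 to 0.11, MST1R from −0.030 to 0.045, CTSL from −0.060 to 0.12, CTSZ from −0.024 to 0.012, PLAUR-202 from −0.93 to 0.044, PLAUR-203 from −0.099 to 0.70, TIMP1-205 from −0.53 to 0.096, TIMP2-201 from −1.74 to 0.18 and ADAM10-201 from −0.10 to 0.066.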

Other observations

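Cathepsins, the lysosomal proteases that also cut matrix, and their cystatin inhibitors gave 0 calls among 9 tested genes with edgeR, 2 at an unadjusted p under 0.05 (17.2% of all genes) and 0 with DESeq2, with a median log2 fold change of 0.034. CTSZ and CTSL were the most abundant, at 502 and 198 TPM, with log2 fold changes of −0.0072 (edgeR adjusted p = 0.948) and 0.034 (adjusted p = 0.913). CTSS had the largest difference, −0.56 (SE 0.22, adjusted p = 0.269), from 3.10, 3.997 and 4.50 CPM in the control libraries to 2.18, 2.72 and 3.00 CPM in the knockdown libraries, with groups apart, as in 12.9% of all genes in that direction.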
